A study of Mus musculus with 16 samples.

Results

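The 10 genes described here belong to the unfolded protein response and the integrated stress response, and were taken by symbol from the 22372 genes of the deposited mouse heart table. They comprise 3 chaperone genes of the endoplasmic reticulum (ER), *Hspa5*, *Hsp90b1* and *Creld2*; 4 transcription factor genes, *Xbp1*, *Atf4*, *Atf5* and *Ddit3*; and 3 genes known as targets of ATF4 and CHOP, *Trib3*, *Asns* and *Chac1*. All 10 were present and 10 of 10 passed the filter on low values. Poly(A) RNA was sequenced from ventricles of C57BL/6J mice that had entered the experiment at 10 to 12 weeks of age and underwent either transverse aortic constriction (TAC), a surgical narrowing that loads the left ventricle with pressure, or a sham operation without the narrowing. Mice of each operation received vehicle (Veh) or THZ1, a covalent inhibitor of the transcriptional kinases CDK7, CDK12 and CDK13, injected intraperitoneally at 10 mg/kg, 2 doses daily, over days 1 to 60 after the operation per the labels. This gave 4 groups of 4 libraries: Sham-Veh and TAC-Veh with vehicle, Sham-THZ1 and TAC-THZ1 with the inhibitor. Each library came from a piece of ventricle that holds every cell type of the wall, and the inhibitor acted in the whole animal. The study asked how THZ1 affects the response of the heart to TAC.

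Proteins that enter the secretory pathway fold in the ER with the help of chaperones such as BiP, the product of *Hspa5*. When unfolded proteins build up, BiP leaves 3 sensors in the ER membrane: IRE1 splices the *Xbp1* mRNA, ATF6 is cut to release a transcription factor, and PERK phosphorylates the translation factor eIF2α. Other kinases phosphorylate eIF2α upon amino acid shortage, viral RNA or haem shortage, so that the eIF2α arm is called the integrated stress response. Phosphorylated eIF2α slows protein synthesis in general while translation of the *Atf4* mRNA increases, and ATF4 in turn drives genes of amino acid supply and, with prolonged stress, *Ddit3*, which encodes CHOP. In the heart both responses are known from pressure overload, ischaemia and mitochondrial disease. Gene counts cannot tell spliced from unspliced *Xbp1* mRNA, and much of the control of *Atf4* and *Atf5* lies in translation, which mRNA levels do not show.

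Libraries held 21.4 to 35.8 M reads on genes (median 28.15 M), of which 33.2 to 44.7% were from the 13 mitochondrial genes. Values are normalized counts, meaning reads divided by a size factor of the library between 0.749 and 1.40, with the SD over the 4 libraries of a group. Differences are on the log2(normalized count + 1) scale with their standard error (SE) from limma, and a gene was called higher or lower at an adjusted p under 0.05 over the 13331 genes tested. The labels number the replicates but do not say more of the animals, so p-values measure the spread between these libraries. The fit pooled this spread over all 16 libraries, although it was unequal. Pairs of libraries of a group differed by a chi-square per degree of freedom of 2.97 to 7.51 in the sham groups. In TAC-Veh it was 50.6 to 93.5 and in TAC-THZ1 10.2 to 55.8. The SE of a sham comparison therefore also holds the spread of the TAC libraries, and that of a TAC comparison holds the narrower sham spread. In pieces of whole ventricle, fewer cells of a type and less RNA per cell cannot be told apart.

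Matches to 2 motifs followed the roles given to the 10 genes, 3 of which were listed as known targets of ATF4 and CHOP. In promoter windows of 300 bases (250 before and 50 after the RefSeq start), the ER stress response element (ERSE: CCAAT, 9 bases, then CCACG, on either strand), the site known for ATF6 and XBP1, was found in all 3 chaperone genes and in none of the other 7. Of 32851 mouse promoter windows in the RefSeq table, 39 (0.119%) held an ERSE. The following stretches show the ERSE of each chaperone gene with its flanks, on the gene's strand, with CCAAT and CCACG or their reverse complements ATTGG and CGTGG in capitals.
Hspa5: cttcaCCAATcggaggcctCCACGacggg
Hsp90b1: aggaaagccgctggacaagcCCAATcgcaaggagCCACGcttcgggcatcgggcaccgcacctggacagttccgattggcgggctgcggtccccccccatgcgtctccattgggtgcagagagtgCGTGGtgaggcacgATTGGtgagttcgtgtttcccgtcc
Creld2: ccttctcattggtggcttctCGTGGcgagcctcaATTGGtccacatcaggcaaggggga
These lie, on the NCBIM37 (mm9) build, at chr2:34627540-34627568 (plus strand), chr10:86168258-86168421 (minus strand) and chr15:88649930-88649988 (plus strand). The *Hspa5* element spans bases -65 to -47 from the start and lies within the span that GENCODE annotates for the gene. *Hsp90b1* holds 2 elements in opposite orientation, at -212 to -194 and at -107 to -89, and the *Creld2* element lies at -126 to -108; both stretches are upstream of the annotated genes.

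The C/EBP-ATF response element (CARE, TGATGNAA on either strand), the site known for ATF4 with a C/EBP partner, was found in all 3 target genes and in none of the other 7, against 1304 of the 32851 windows (3.97%). The stretches around 2 of them are shown with the fixed letters of the element in capitals; in *Chac1* the element reads on the other strand.
Asns: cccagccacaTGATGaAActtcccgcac
Chac1: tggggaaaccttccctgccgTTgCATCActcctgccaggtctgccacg
They lie at chr6:7643215-7643242 (minus strand), within the annotated span of *Asns*, and at chr2:119176765-119176812 (plus strand), upstream of *Chac1*. The elements are at -23 to -16 in *Asns* and at -193 to -186 in *Chac1*, while that of *Trib3* lies downstream of the start, at 15 to 22. The XBP1 site known as UPRE (TGACGTGG, which contains the reverse complement of CCACG; 0.676% of windows) and ERSE-II (ATTGG and CCACG 1 base apart; 0.0365%) were found in no window of the 10 genes. A match or its absence describes letters in these windows only.

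**Figure D1:**
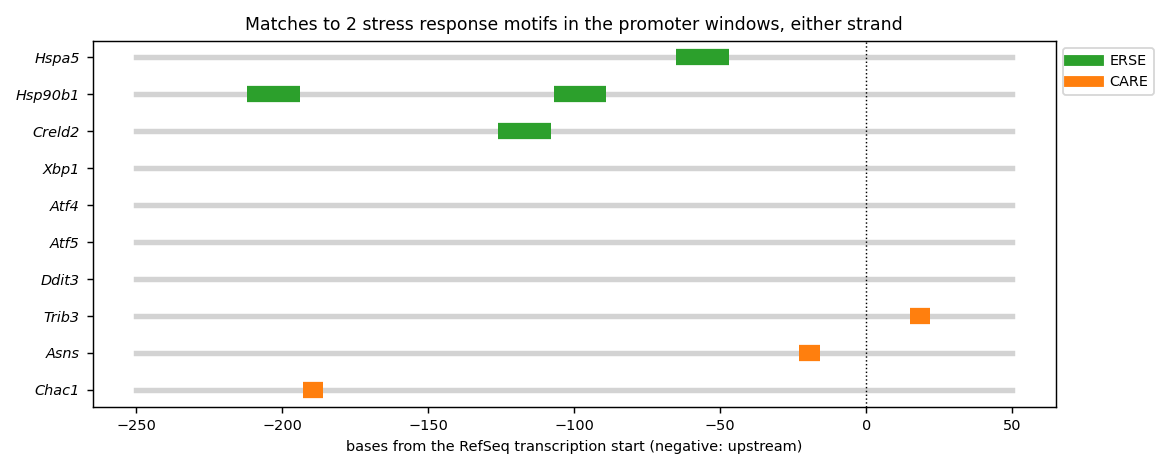
Positions of the ERSE (green) and CARE (orange) matches in the promoter windows of the 10 genes; the horizontal axis gives bases from the RefSeq transcription start. The 3 chaperone genes hold ERSE matches and *Trib3*, *Asns* and *Chac1* hold CARE matches, and no gene holds both.

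TAC under vehicle moved the genes in both directions. *Atf4*, *Asns* and *Creld2* rose, 3 of 10 genes against 21.4% of all genes tested that were called higher, and *Hspa5* fell, 1 of 10 against 23.6% called lower. Neither share stood far from that of the whole table. *Hsp90b1*, *Xbp1*, *Atf5*, *Ddit3*, *Trib3* and *Chac1* were not called. By role, the median difference was -0.17 for the chaperones, 0.15 for the transcription factors and 0.42 for the targets, beside a median of -0.00 over all genes tested. Under THZ1, TAC-THZ1 against Sham-THZ1, *Atf4*, *Asns* and *Ddit3* were called higher (3 of 10; 11.4% of all genes) and *Hspa5* lower (1 of 10; 12.8%). The calls of *Atf4*, *Asns* and *Hspa5* were thus made with both treatments, whose TAC comparisons share no library, that of *Creld2* under vehicle and that of *Ddit3* under THZ1.

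Few of the 10 genes were called with THZ1 itself, at shares not far from those of the whole table. In TAC hearts, *Ddit3* rose (1 of 10, against 15.1% of all genes called higher) and *Chac1* fell (1 of 10, against 14.2% called lower) in TAC-THZ1 relative to TAC-Veh; this comparison shares the TAC-Veh libraries with the comparison of TAC-Veh and Sham-Veh. In sham hearts none of the 10 was called by limma, edgeR or DESeq2, and 1 of 10, *Trib3*, had an unadjusted p under 0.05; of all genes, 0.0225% (3) were called higher and 0.045% (6) lower, which became 287 and 178 genes with the sham groups fitted alone and 254 and 259 with array weights. The difference between the THZ1 effect in TAC and in sham hearts (the interaction) was called for *Ddit3* alone, as higher, against 4.4% of all genes called higher and 5.62% lower.

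**Figure D2:**
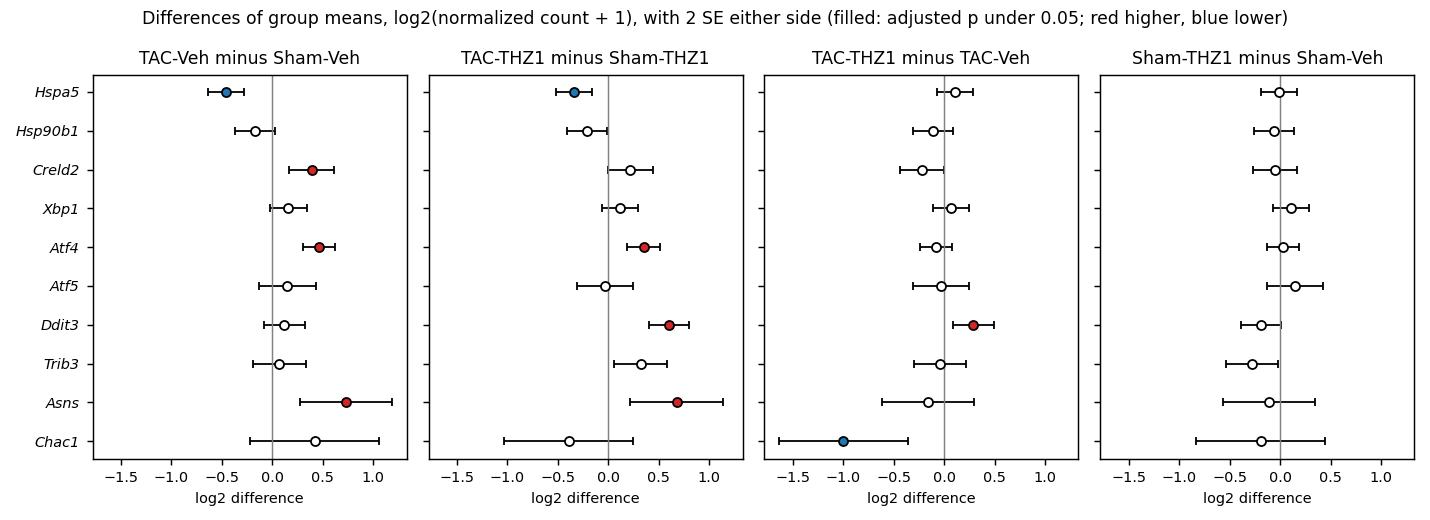
Log2 differences of the 10 genes (points) with 2 SE on either side (whiskers) in 4 comparisons; filled points passed an adjusted p of 0.05, red higher and blue lower. *Hspa5* lies left of 0 and *Atf4* and *Asns* right of 0 in both TAC comparisons, and the sham comparison holds no filled point.

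*Hspa5* encodes BiP, the main Hsp70 chaperone of the ER, and had the highest level per length of the 10 genes, with a mean of 3575 normalized counts per kb of exon over all libraries. The gene (ENSMUSG00000026864.7) lies at chr2:34627490-34632051. Sham-Veh libraries held 15391, 13252, 15186 and 13375 normalized counts (14301 ± 1144, n = 4). TAC-Veh libraries held 10363, 10142, 10094 and 11054 (10413 ± 443). Every TAC-Veh library was below every Sham-Veh library, and the difference was -0.46 (SE 0.09, adjusted p = 0.000893), a fold of 0.73. With THZ1 the levels were 13952, 17630, 13349 and 12321 in sham (14313 ± 2311) and 11985, 11381, 10526 and 10935 after TAC (11207 ± 625). Again the groups did not overlap, and the difference was -0.34 (SE 0.09, adjusted p = 0.0156). TAC-THZ1 and TAC-Veh overlapped, with a difference of 0.11 (-0.08 to 0.29 at 2 SE, adjusted p = 0.417), as did the sham groups (-0.01, -0.19 to 0.18). By mean level, Sham-THZ1 and Sham-Veh stood above TAC-THZ1 and TAC-Veh, and libraries overlapped only within each operation. Both TAC calls of *Hspa5* held in all 27 refits of the data at the same threshold on p, but neither difference reached the study's added fold threshold for TAC, 1 on the log2 scale, and no other TAC call among the 10 genes did.

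*Hsp90b1* encodes GRP94, the ER member of the Hsp90 family, a chaperone of integrins, Toll-like receptors and insulin-like growth factors. It was the next most abundant at 2335 normalized counts per kb. The gene (ENSMUSG00000020048.7, chr10:86152954-86168254, minus strand) shares 84 of its 4032 exon bases with Gm15344 and 133 with a miRNA annotated on the same strand. Sham-Veh libraries held 11262, 9885, 10421 and 9305 normalized counts (10218 ± 832) and TAC-Veh libraries 8237, 9094, 8916 and 10218 (9116 ± 822). The groups overlapped through TAC-Veh replicate 4, and the difference was -0.17 (SE 0.10, adjusted p = 0.178). Sham-THZ1 held 9732, 11843, 9217 and 8627 (9855 ± 1400) and TAC-THZ1 held 9367, 8498, 7647 and 8338 (8462 ± 707), a difference of -0.21 (-0.41 to -0.02 at 2 SE) that missed the threshold (adjusted p = 0.117). All neighbouring groups in the order of the 4 means overlapped.

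*Creld2* encodes a small ER protein with disulphide isomerase activity that cells secrete under ER stress. It is much less abundant, at 203 normalized counts per kb (ENSMUSG00000023272.3, chr15:88650076-88657111, plus strand). Sham-Veh libraries held 274, 225, 273 and 233 normalized counts (251 ± 25.9) and TAC-Veh libraries 310, 400, 294 and 317 (330 ± 47.2). All 4 TAC-Veh libraries were above all 4 Sham-Veh libraries, with a difference of 0.39 (SE 0.11, adjusted p = 0.0097), which held in all 27 refits. The 3 ERSE genes therefore did not share a direction: *Creld2* rose, *Hspa5* fell and *Hsp90b1* was not called. With THZ1, *Creld2* was at 233, 285, 219 and 237 in sham (243 ± 28.9) and at 318, 258, 268 and 288 after TAC (283 ± 26.3), and this difference of 0.22 was not called (adjusted p = 0.162). TAC-THZ1 against TAC-Veh gave -0.22 (-0.44 to 0.01 at 2 SE, adjusted p = 0.155), and the groups overlapped.

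**Figure D3:**
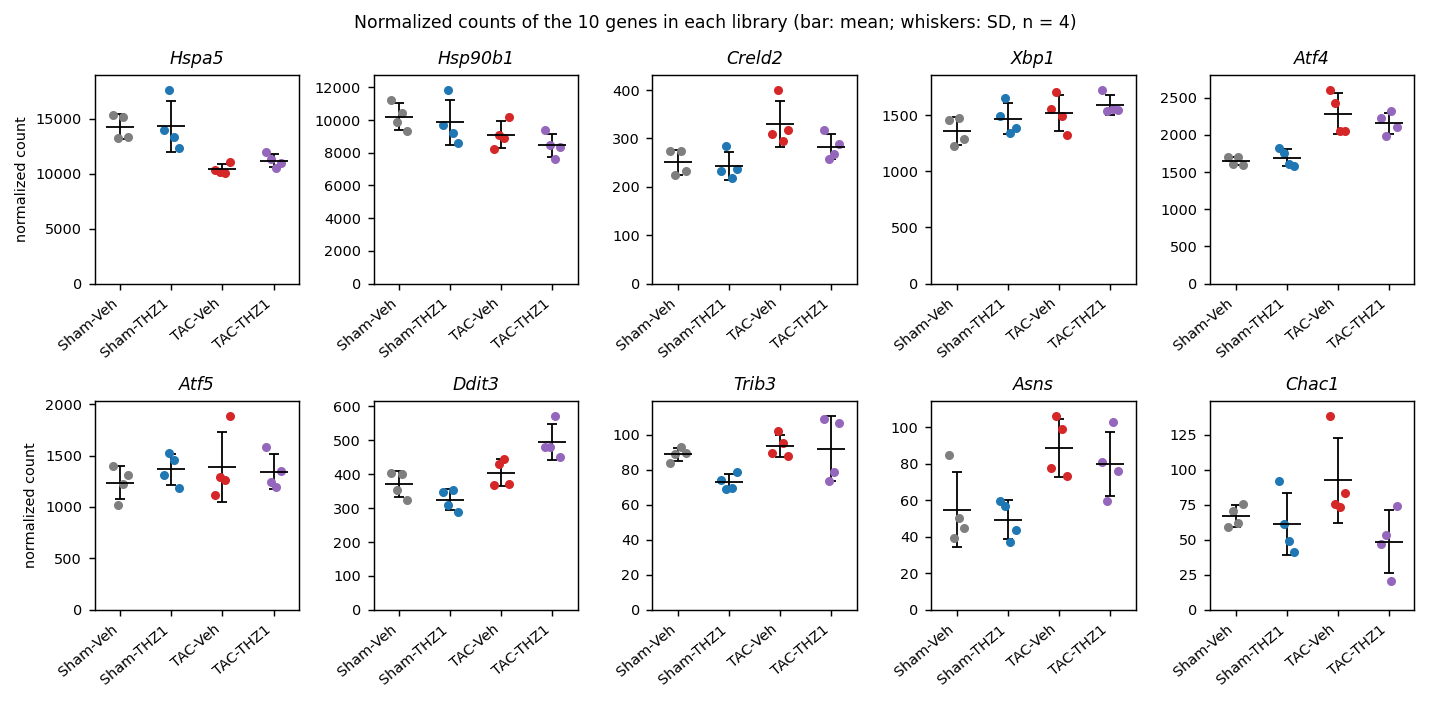
Normalized counts of the 10 genes in each of the 16 libraries, by group; coloured points are libraries in replicate order, bars are means and whiskers the SD (n = 4), and every axis starts at 0. *Hspa5* and *Atf4* separate by operation in opposite directions, and *Ddit3* is highest in the 4 TAC-THZ1 libraries.

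Of the transcription factors, *Atf4* was the 1 called with TAC under both treatments. Its product is the central activator of the integrated stress response, and its level per length was the highest of the 4, at 1129 normalized counts per kb. The gene (ENSMUSG00000042406.6) lies at chr15:80085614-80087970. Sham-Veh libraries lay close together at 1698, 1604, 1702 and 1598 normalized counts (1651 ± 57.2), while TAC-Veh libraries held 2605, 2431, 2058 and 2051 (2286 ± 277). The groups did not overlap, and the difference was 0.46 (SE 0.08, adjusted p = 0.000215), a fold of 1.38. Replicates 1 and 2 of TAC-Veh were the highest of all 16 libraries. With THZ1, *Atf4* was at 1819, 1754, 1613 and 1576 in sham (1691 ± 115) and at 2222, 1981, 2317 and 2105 after TAC (2156 ± 145), again with no overlap and a difference of 0.35 (SE 0.08, adjusted p = 0.00593). TAC-THZ1 differed from TAC-Veh by -0.08 (-0.24 to 0.08 at 2 SE, adjusted p = 0.481). Both TAC calls held in all 27 refits.

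*Ddit3* encodes CHOP, the factor linked to cell death when ER stress persists. The gene (ENSMUSG00000025408.9, chr10:126727830-126733344, plus strand) shares 68 exon bases with *Mars* on the opposite strand, which the stranded counting keeps apart. Sham-Veh libraries held 404, 354, 400 and 324 normalized counts (370 ± 38.4) and TAC-Veh libraries 368, 429, 446 and 371 (404 ± 39.7). These groups overlapped (0.12, SE 0.10, adjusted p = 0.334). TAC-THZ1 libraries were at 479, 479, 571 and 450 (495 ± 52.7), the 4 highest values of the series, and Sham-THZ1 libraries at 347, 309, 354 and 290 (325 ± 30.6). The lowest TAC-THZ1 library, at 450, stood just above the highest TAC-Veh library, at 446. The difference between TAC-THZ1 and TAC-Veh was 0.29 (SE 0.10, adjusted p = 0.0369), and between TAC-THZ1 and Sham-THZ1 0.60 (SE 0.10, adjusted p = 0.00119), a fold of 1.52. The first call was lost when TAC-Veh replicate 1 or 4 or TAC-THZ1 replicate 1, 2 or 3 was left out (adjusted p = 0.0552 to 0.113), with the 2 groups fitted alone (0.102) and with array weights (0.257). The second held in all 27 refits.

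The THZ1 effect on *Ddit3* was 0.29 in TAC hearts and -0.19 in sham hearts (adjusted p = 0.771), and the interaction was 0.48 (SE 0.14, adjusted p = 0.0422). The interaction missed the threshold in 12 of the 16 fits that left out 1 library (adjusted p = 0.0526 to 0.0892). CHOP mRNA was thus the member with the greatest difference between treatments after TAC among the 4 transcription factors, and it did not follow *Atf4*, which stood at similar levels in TAC-Veh and TAC-THZ1.

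*Xbp1*, the target of the IRE1 endonuclease (ENSMUSG00000020484.11, chr11:5420662-5425896, plus strand), varied little, with a highest group mean only 1.17 times the lowest. Sham-Veh libraries held 1457, 1222, 1477 and 1284 normalized counts (1360 ± 126) and TAC-Veh libraries 1555, 1710, 1489 and 1324 (1519 ± 160), which overlapped (0.16, SE 0.09, adjusted p = 0.15). Without TAC-Veh replicate 4, the lowest of its group, the difference was 0.22 and was called (adjusted p = 0.0407). Sham-THZ1 held 1489, 1652, 1344 and 1383 (1467 ± 138) and TAC-THZ1 1725, 1542, 1560 and 1548 (1594 ± 88.2). Neighbouring groups overlapped throughout, and no comparison was called.

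*Atf5*, an ATF4 relative that also serves the mitochondrial unfolded protein response (ENSMUSG00000038539.8, chr7:52067627-52072028, minus strand), was the least changed member, with a highest group mean 1.12 times the lowest. Sham-Veh libraries held 1396, 1019, 1224 and 1310 normalized counts (1237 ± 162) and TAC-Veh libraries 1113, 1296, 1265 and 1882 (1389 ± 338). The spread of TAC-Veh rests on replicate 4, the highest of the 16, and the TAC difference was 0.15 (-0.13 to 0.43 at 2 SE, adjusted p = 0.416). Sham-THZ1 held 1310, 1521, 1458 and 1186 (1369 ± 151) and TAC-THZ1 1583, 1244, 1195 and 1352 (1344 ± 173). No comparison was called, and the intervals at 2 SE spanned -0.31 to 0.43 over the 4 comparisons of groups.

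The 3 target genes were counted far less often, at 25 to 41.1 normalized counts per kb, with 25 to 148 reads per library behind each value, so counting error alone is a larger part of their spread. *Asns* encodes asparagine synthetase, a standard readout of ATF4 (ENSMUSG00000029752.6, chr6:7625169-7643254, minus strand). Sham-Veh libraries held 84.9, 39.3, 50.4 and 44.8 normalized counts (54.8 ± 20.5) and TAC-Veh libraries 77.6, 106, 99.1 and 73.3 (88.9 ± 15.9). Sham-Veh replicate 1 lay among the TAC-Veh libraries and the other 3 below them all. The difference was 0.73 (SE 0.23, adjusted p = 0.0158), a fold of 1.66, and missed the threshold without Sham-Veh replicate 2 (adjusted p = 0.0598) or TAC-Veh replicate 2 (0.0501). With THZ1, *Asns* was at 59.6, 57, 37.4 and 43.6 in sham (49.4 ± 10.7) and at 80.8, 59.8, 103 and 76.2 after TAC (79.8 ± 17.6). These groups just failed to overlap, and the difference of 0.68 (SE 0.23, adjusted p = 0.0412) was lost in 6 of the 16 fits that left out 1 library (adjusted p up to 0.12) and with no filter on low values (0.0599). TAC-THZ1 against TAC-Veh gave -0.16 (-0.62 to 0.30 at 2 SE).

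*Chac1* encodes a glutathione-degrading enzyme that CHOP and ATF4 are known to induce (ENSMUSG00000027313.3, chr2:119176965-119180117, plus strand). Its TAC-Veh libraries held 138, 75.8, 73.3 and 83.5 normalized counts (92.5 ± 30.3) and its TAC-THZ1 libraries 47, 53.5, 20.3 and 74.2 (48.7 ± 22.2). Only TAC-THZ1 replicate 4 reached the lowest TAC-Veh library. The difference was -1.0 (SE 0.32, adjusted p = 0.027), a fold of 0.50, the widest of the 10 genes in any of the 4 comparisons of groups. It was lost without TAC-Veh replicate 1 (-0.79, adjusted p = 0.0733) or TAC-THZ1 replicate 3 (-0.64, adjusted p = 0.0784), the highest and lowest of the 8 libraries, with the 2 groups fitted alone (adjusted p = 0.101) and with array weights (0.263). Sham-Veh libraries lay at 59.4, 70.6, 61.9 and 75.8 (66.9 ± 7.63) and Sham-THZ1 libraries at 91.8, 61.4, 49.4 and 41.5 (61 ± 22.1). TAC-Veh was not called against Sham-Veh (0.42, -0.22 to 1.06 at 2 SE, adjusted p = 0.303). *Ddit3* and *Chac1* therefore differed in opposite directions between TAC-THZ1 and TAC-Veh.

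*Trib3* encodes a pseudokinase that restrains AKT and ATF4 and is itself a CHOP target (ENSMUSG00000032715.8, chr2:152163158-152169768, minus strand). Sham-Veh libraries held 83.8, 89, 92.8 and 89.6 normalized counts (88.8 ± 3.74) and TAC-Veh libraries 89.4, 102, 95.1 and 87.7 (93.4 ± 6.26), a difference of 0.07 (-0.18 to 0.32 at 2 SE, adjusted p = 0.677). Sham-THZ1 libraries, at 74, 69.1, 69.5 and 79 (72.9 ± 4.64), were all below the Sham-Veh libraries. The limma difference was -0.28 (SE 0.13, with the spread pooled over all groups) and did not pass over all genes (adjusted p = 0.696). The lowest adjusted p among the 27 refits was 0.0746. TAC-THZ1 libraries split into 2 high values and 2 low ones, 109, 73.8, 78.9 and 107 (92.2 ± 18.4). Against Sham-THZ1 the difference was 0.32 (adjusted p = 0.0779), which passed without TAC-THZ1 replicate 2 (0.41, adjusted p = 0.0255) and with array weights (0.37, adjusted p = 0.0146).

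Some of the ER genes deviated from their group means together, library by library. Over the 16 libraries, the deviations of *Hspa5* and *Hsp90b1* had a Pearson r of 0.906 and a Spearman rho of 0.862, and r was 0.838 without the 2 libraries farthest from the median of *Hspa5*. *Hsp90b1* was the gene whose deviations were most like those of *Hspa5* among all genes tested, and the reverse held too. For *Xbp1* the most similar gene was *Manf*, an ER stress-induced secreted factor (r = 0.928, rho = 0.915; 0.902 without the farthest 2), followed by the member *Creld2* (r = 0.835, rho = 0.676; 0.729). The gene most like *Creld2* was *2010015L04Rik* (r = 0.917), followed by *Edem1* (r = 0.868) and *Pdia3* (r = 0.866). *Edem1* and *Pdia3* belong to the ER folding and disposal system. After *Hspa5*, the genes most like *Hsp90b1* were *Hyal1* (r = 0.870) and the chaperone *Calr* (r = 0.844). *Hyal1* also came next for *Hspa5* (r = 0.841). The most similar gene was *Rnf149* for *Atf4* (r = 0.929), *St13* for *Atf5* (0.900) and *Zmpste24* for *Ddit3* (0.868). It was *Entpd2* for *Trib3* (0.836), *Fam60a* for *Asns* (0.852) and *Omd* for *Chac1* (0.892). For *Atf4*, *Cd14* followed (r = 0.928). Sham-THZ1 replicate 2 was the highest of its group for *Hspa5*, *Hsp90b1*, *Creld2* and *Xbp1* together. The deviations of *Hspa5* and *Atf4* had an r of 0.215 (rho = 0.232) and 0.025 without the farthest 2. These are descriptions over libraries that share preparation and a size factor, and the most similar genes were picked as such.

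The levels themselves, group differences included, gave r = -0.733 (rho = -0.712) for *Hspa5* and *Atf4* and r = 0.814 (rho = 0.812) for *Atf4* and *Asns* over the 16 libraries, which separate by operation for *Hspa5* and *Atf4*, so that these values largely restate the group means. By level, the gene most like *Hspa5* was *Canx* (r = 0.898), the membrane-bound ER chaperone calnexin. The genes most like *Atf4* were *Mif* (r = 0.965), *Maea* (r = 0.964) and *Ap1s1* (r = 0.963), none of them in the lists of the pathway. *Ostc*, a subunit of the oligosaccharyltransferase, was most like *Asns* (r = 0.907), followed by *Gng8* (r = 0.886) and *C1qb* (r = 0.883). *Fcrls* was most like *Creld2* by level (r = 0.924), followed by *Pdia3* (r = 0.916), and *Emcn* was most like *Ddit3* (r = 0.884).

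**Figure D4:**
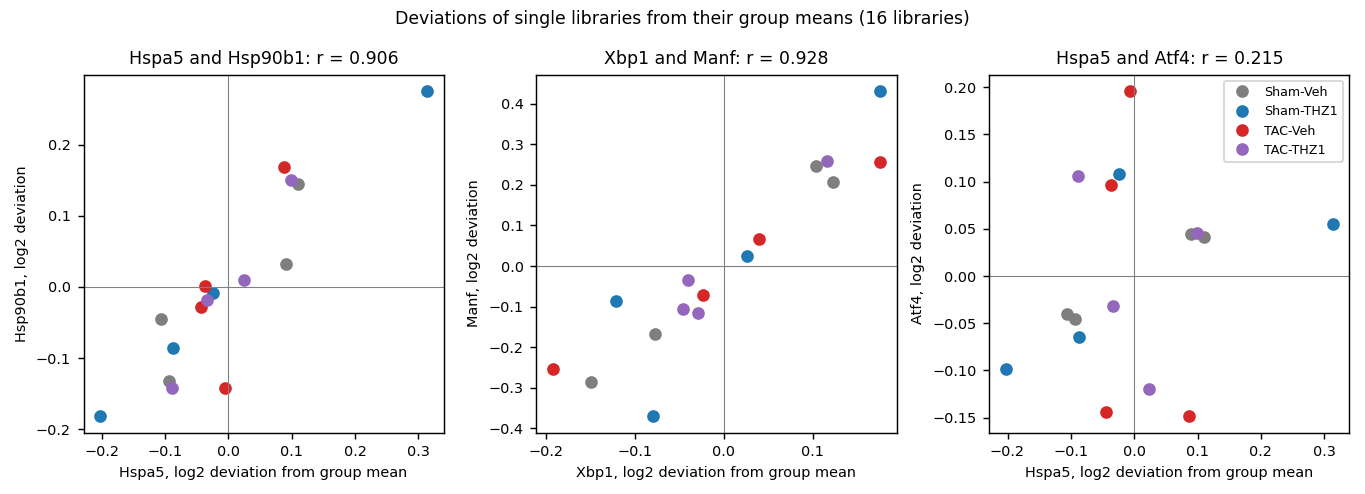
Log2 deviations of the 16 libraries from their group means for 3 pairs of genes, coloured by group. Points for *Hspa5* and *Hsp90b1* (r = 0.906) and for *Xbp1* and *Manf* (r = 0.928) follow a line, and those for *Hspa5* and *Atf4* (r = 0.215) do not.

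Of the sensors that lie upstream of these genes, mRNA levels were not called with TAC for *Ern1*, which encodes IRE1 (-0.19, adjusted p = 0.0873), *Eif2ak3*, which encodes PERK (0.21, adjusted p = 0.0737), or *Atf6* (-0.11, adjusted p = 0.245). *Ern1* was called lower without TAC-Veh replicate 4 (-0.29, adjusted p = 0.00382) and *Eif2ak3* higher without TAC-Veh replicate 3 (0.31, adjusted p = 0.0064). For the lists that follow, 21.4% of all genes tested were called higher and 23.6% lower with TAC. With THZ1 in TAC hearts, 15.1% were called higher and 14.2% lower. In the list of 9 tested sensors and membrane-bound factors, 3 rose with TAC, the stress factor genes *Creb3* (0.72) and *Creb3l2* (0.60) and the protease gene *Mbtps1* (0.16), and none fell. With THZ1 in TAC hearts 4 fell, among them *Creb3l2* (-0.88), *Creb3* (-0.38) and *Eif2ak3* (-0.30), whose libraries went from 379, 383, 280 and 332 normalized counts in TAC-Veh to 273, 289, 258 and 287 in TAC-THZ1. Between TAC-THZ1 and Sham-THZ1, 3 of the 9 were lower and 1 higher, beside 12.8% and 11.4% of all genes. *Ern1* was among the lower ones (-0.42, limma adjusted p = 0.00422). Its libraries lay at 474 to 516 normalized counts in Sham-THZ1, above the 424 to 462 in Sham-Veh, a difference that was not called. Of the 6 genes for other eIF2α kinases, eIF2α and its phosphatase subunits, 1 rose with TAC, *Ppp1r15a*, which encodes the stress-induced phosphatase subunit GADD34 (0.83), and 3 fell with THZ1, *Ppp1r15a* again (-0.64), *Eif2ak2* (-0.31) and *Ppp1r15b* (-0.17). *Ppp1r15a* libraries held 540, 489, 553 and 602 normalized counts in Sham-Veh, 1477, 1060, 693 and 807 after TAC with vehicle and 692, 617, 542 and 648 in TAC-THZ1. With THZ1, the calls of *Eif2ak2*, *Ppp1r15b*, *Eif2ak3*, *Creb3* and *Ppp1r15a* were lost in 16, 7, 5, 2 and 1 of 27 refits, and with TAC that of *Mbtps1* in 6.

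Other ER genes went in both directions with TAC. The shares of all genes tested were 21.4% higher and 23.6% lower with TAC. With THZ1 in TAC hearts they were 15.1% and 14.2%. Of 19 ER chaperones and foldases beyond the members, 8 rose with TAC, led by *Txndc5* (0.84), *Ppib* (0.65) and *Pdia4* (0.43), enzymes of disulphide and proline isomerisation. In the same list 3 fell: *Canx* (-0.50), the BiP cofactor *Dnajb9* (-0.41) and the BiP exchange factor *Hyou1* (-0.38), the last of which was not called in 17 of 27 refits. *Canx* was at 8914, 8757, 8640 and 8288 normalized counts in Sham-Veh and at 5518, 5931, 6106 and 6973 in TAC-Veh, separated as *Hspa5* was. With THZ1 in TAC hearts 7 of the 19 fell, including *Txndc5* (-0.62), *P4hb* (-0.41) and *Pdia4* (-0.40), and none rose. Of 15 genes for the translocon, signal peptidase and COPII coat, 9 rose with TAC, including *Sec61b* (0.65), *Sec61a1* (0.49) and *Ssr4* (0.41), and 4 fell with THZ1. Of 13 genes for ER-associated degradation, 4 rose with TAC and 3 fell, not far from the shares of all genes. *Herpud1*, an ER stress target, was among those that fell (-0.68). It was the 1 gene of the list that rose with THZ1 (0.59), where 4 fell. The THZ1 calls of *Herpud1* and *Pdia4* were each lost in 4 of 27 refits.

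ER genes for collagen moved most evenly: 9 of 10 rose with TAC and 10 of 10 fell with THZ1. Their median differences were 0.57 and -0.49. The shares over all genes tested were 21.4% for a rise after TAC and 14.2% for a fall under THZ1 after TAC. Both comparisons use the TAC-Veh libraries, so a rise in the first and a fall in the second are partly coupled. *Serpinh1*, which encodes the collagen chaperone HSP47, was at 4585, 3594, 4346 and 4121 normalized counts in Sham-Veh, 4549, 9207, 6622 and 6656 in TAC-Veh and 3973, 3710, 5203 and 4873 in TAC-THZ1. *P4ha1*, a collagen prolyl hydroxylase gene, gave 1.01 with TAC and -0.67 with THZ1. The 8 fibroblast markers moved alongside: 6 of 8 rose with TAC and 6 of 8 fell with THZ1, and their summed normalized counts lay between 27975 and 31483 in Sham-Veh, between 71681 and 157473 in TAC-Veh and between 29924 and 42822 in TAC-THZ1. The part of the fibroblast markers in these results was not tested.

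Among genes of the ATF4 programme, those for amino acid and one-carbon synthesis went in both directions with TAC, 5 of 10 higher and 4 lower. Of all genes tested, 21.4% were called higher and 23.6% lower with TAC, and 15.1% and 14.2% with THZ1 in TAC hearts. *Mthfd2* (1.55), *Phgdh* (1.61) and *Pycr1* (1.49) rose, while *Aldh1l2* (-1.98), *Gpt2* (-1.32) and *Cth* (-0.68), enzymes of the same list, fell. *Phgdh* was counted little, at 3.54 to 13.8 normalized counts in Sham-Veh and 15.3 to 40.8 in TAC-Veh. Its difference ranged from 1.06 to 1.88 over the refits. *Mthfd2*, a mitochondrial folate enzyme, held 58.3, 33.7, 63.7 and 55.1 normalized counts in the Sham-Veh libraries and 133, 189, 137 and 156 in the TAC-Veh libraries, with no overlap. With THZ1 in TAC hearts *Pycr1* (-1.20) and *Aldh18a1* (-0.48), both of proline synthesis, fell, and 4 rose, among them *Gpt2* (0.72), *Aldh1l2* (0.72) and *Cth* (0.77). The call of *Cth* was lost in 7 of 26 refits with TAC and in 5 of 26 with THZ1. The THZ1 calls of *Aldh1l2* and *Aldh18a1* were lost in 3 and 1 of 27. Of 7 amino acid transporters, 5 rose with TAC, including *Slc1a4* (1.42) and *Slc7a5* (0.87), and *Slc7a1* fell (-0.69). Of 12 cytosolic aminoacyl-tRNA synthetases, 6 rose, including *Nars* (0.42), *Sars* (0.40) and *Yars* (0.35), and none fell. These sit beside *Asns* (0.73) and *Atf4* (0.46), which rose, and *Trib3* and *Chac1*, which were not called.

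Changes wider than any among the 10 genes were seen in some other stress effectors of the pathway. Of 11 tested, 4 rose with TAC, 1 fell (*Vldlr*, -0.72) and 6 were not called, beside 21.4% higher and 23.6% lower of all genes. With THZ1 in TAC hearts 4 fell, none rose and 7 were not called, beside 14.2% lower and 15.1% higher of all genes. *Gdf15*, a secreted stress hormone gene, was at 25.5, 11.2, 20.3 and 14.9 normalized counts in Sham-Veh, 344, 652, 168 and 325 in TAC-Veh and 45.9, 30.6, 20.3 and 32.7 in TAC-THZ1. *Nupr1* gave 2.78 with TAC and -1.92 with THZ1, and *Atf3*, a factor downstream of ATF4, gave 2.29 and -1.47. *Atf3* was at 653, 442, 229 and 193 normalized counts in TAC-Veh. As for *Atf4* and *Ppp1r15a*, TAC-Veh replicates 1 and 2 held the highest values of that group. Mitochondrial chaperones and proteases went the other way, with 5 of 8 lower after TAC, including *Hspd1* (-0.50), *Hspa9* (-0.35) and *Clpp* (-0.28), and 4 of 8 higher with THZ1, the same 3 among them (0.32, 0.31 and 0.37). Of all genes tested, 23.6% were called lower with TAC and 15.1% higher with THZ1 in TAC hearts. The TAC call of *Clpp* was lost in 4 of 27 refits. With THZ1, each of the 3 calls was lost in 1 of 27, with the groups fitted alone.

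**Figure D5:**
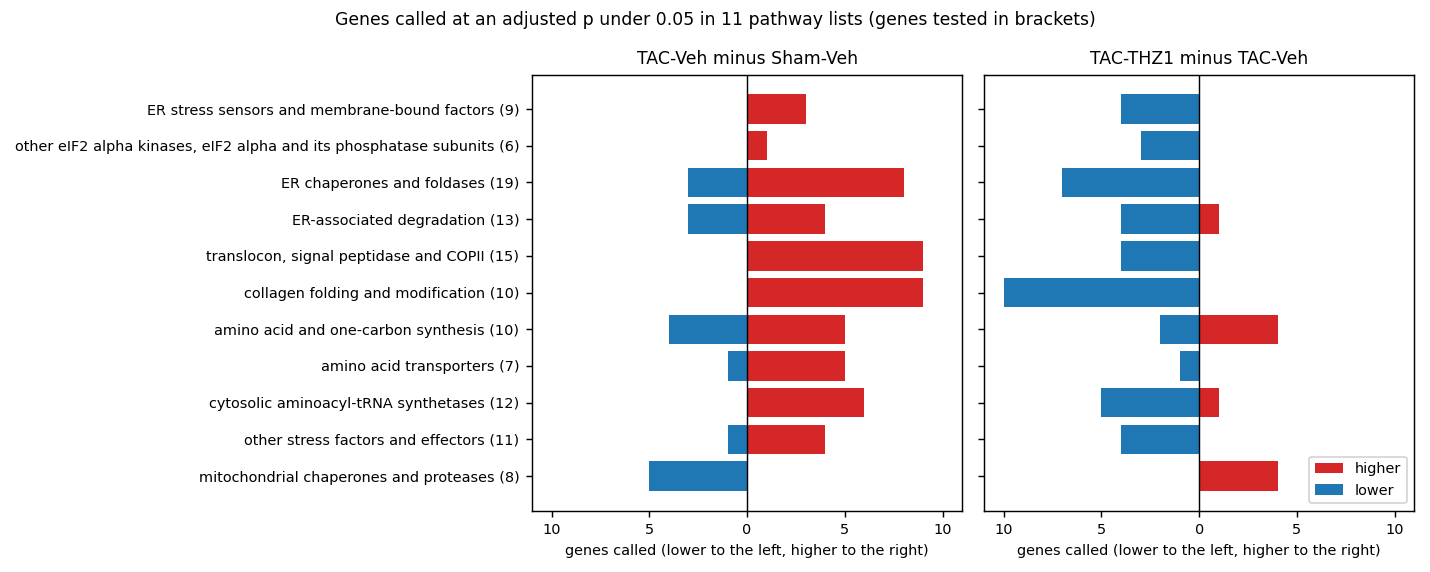
Number of genes called higher (red, right) and lower (blue, left) in 11 lists of related genes that leave out the 10 members, for TAC-Veh against Sham-Veh and for TAC-THZ1 against TAC-Veh; genes tested stand in brackets. The collagen folding list has 9 of 10 higher on the left and 10 of 10 lower on the right, beside 21.4% and 14.2% of all genes tested.

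Over the 11 lists, 54 of 120 tested genes (45%) rose with TAC and 17 (14.2%) fell, beside 21.4% and 23.6% of all genes tested, with a median of 0.18 beside -0.00. In TAC hearts 44 (36.7%) fell with THZ1 and 10 (8.33%) rose, beside 14.2% and 15.1% of all genes, with a median of -0.14 beside 0.01. These 2 comparisons share the TAC-Veh libraries. The lists were chosen with earlier results of these data known, so their shares are descriptions. The collagen list alone held 9 of the 54 genes that rose with TAC and 10 of the 44 that fell with THZ1. Between TAC-THZ1 and Sham-THZ1 18 rose and 15 fell, against 11.4% and 12.8% of all genes, shares near those of the lists (15% and 12.5%). In sham hearts none of the 120 was called. With the sham groups fitted alone 1 was called higher and 4 lower, beside 287 and 178 of all genes. Array weights gave 2 and 3, beside 254 and 259 of all genes. With TAC-Veh and TAC-THZ1 fitted alone, 16 fell and 1 rose with THZ1. In that fit 816 of all 13331 genes fell and 583 rose, in place of 1899 and 2019. When TAC-Veh replicate 2 was left out, 32 fell and 5 rose, beside 1318 and 1365 of all genes. Of 82 differences of single genes chosen from the lists, 30 changed their call when the groups compared were fitted alone, most of them with THZ1. Of 16 tested genes with an ERSE in the promoter window, members included, 4 rose with TAC and 6 fell, beside 21.4% and 23.6% of all genes.

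Markers of cell types differed between the groups beside these genes. Of all genes tested, 21.4% were called higher and 23.6% lower with TAC, and 15.1% and 14.2% with THZ1 in TAC hearts. Between TAC-THZ1 and Sham-THZ1 the shares were 11.4% and 12.8%. The 8 cardiomyocyte markers had sums of normalized counts between 1468294 and 1543665 in Sham-Veh, between 853385 and 1218802 in TAC-Veh and between 1305308 and 1549287 in TAC-THZ1, with 5 of 8 lower after TAC and 5 of 8 higher with THZ1. Of 7 macrophage markers, 5 rose with TAC (sums of 4191 to 5108 and 6897 to 8966), and none was called with THZ1. Neutrophil markers summed to 34.9 to 205 in TAC-Veh and 128 to 6443 in TAC-THZ1, the group where *Ddit3* was highest, and both of the 2 tested, of 6 listed, rose with THZ1 in TAC hearts. Of 6 endothelial and of 6 smooth muscle and pericyte markers, 4 each were lower in TAC-THZ1 than in Sham-THZ1 and 1 endothelial marker was higher, and of the 8 fibroblast markers 3 were higher and 1 lower. B and plasma cell markers, a lineage with a large ER and high *Xbp1*, summed to only 184 to 223 normalized counts in Sham-Veh and 297 to 427 in TAC-Veh. Atrial markers summed to at most 82.3 normalized counts in any library, far below the 3 ventricular markers at 191718 or more, and no marker of any list was at 0 in every library. The part of these shifts in the levels of the 10 genes was not tested.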

How the data were processed

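RNA from 16 mouse ventricle samples in 4 groups of 4 was sequenced by the authors. Per the labels and methods, reads were aligned with TopHat2 2.1.1 to mm9 and counted by gene and strand with HTSeq, and the deposited signal is each gene count divided by a DESeq2 size factor of the library. All values came out as whole reads (within 0.001) when multiplied back.

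The 10 genes and all lists were chosen with earlier results of these data known. Differences were fitted with limma 3.58.1 (R 4.3.3) on log2(normalized count + 1), since the files hold normalized counts, with 1 mean per group over all 16 libraries, for genes with at least 10 normalized counts in at least 4 libraries (13331 genes), and Benjamini-Hochberg adjustment within each of 5 comparisons. Named genes are the 10, the sensors, and up to 3 called genes with the widest difference per list, direction and comparison; the genes most like a member are the 3 with the highest Pearson r. Which of these genes have their levels printed was chosen after their values were seen.

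Promoters are RefSeq windows (GRCm38.p6 table, 32851 windows of 27025 genes), and each window of the 10 genes matched NCBIM37 exactly once. Locations are GENCODE annotation on NCBIM37. No 40-base stretch of the longest transcript of the 10 genes was found elsewhere in the genome (BLAST 2.17.0, 0%). Alternatives were pseudocount, filter, scaling, edgeR 4.0.16 and DESeq2 1.42.0 on the recovered reads, groups fitted alone, robust and weighted fits, a replicate block, the study's fold thresholds and leaving out each library. Scripts were tested on simulated data.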

Additional observations from a re-analysis of the deposited data

Results flagged for a closer look

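Within the groups of 4, the 10 genes were screened for a library far from the other 3 (40 groups in all, of which chance flags about 1 in 20). TAC-THZ1 replicate 1 stood apart for *Xbp1*, at 1725 normalized counts with the others at 1542 to 1560. TAC-Veh replicate 1 stood apart for *Chac1*, at 138 with the others at 73.3 to 83.5, and without it the difference between TAC-THZ1 and TAC-Veh was -0.79 and no longer called (adjusted p = 0.0733). The THZ1 effect on *Ddit3* differed between TAC and sham hearts by 0.48 (limma interaction, adjusted p = 0.0422).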

How the results depend on the processing

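Of 1340 re-estimated differences of the 10 genes, 1267 kept their direction and their side of the threshold. The TAC calls of *Hspa5*, *Atf4* and *Creld2*, and those of *Hspa5*, *Atf4* and *Ddit3* under THZ1, were kept in all 27 refits at the same threshold on p. With the study's fold thresholds (1 on the log2 scale for TAC and 0.89 for THZ1), the TAC counts went from 3 higher and 1 lower to 0 and 0, and the count higher with THZ1 in TAC hearts from 1 to 0. That count and the count lower with THZ1 both became 0 with the groups fitted alone and with array weights. The interaction count became 0 with no filter and with array weights. The causes were not tested. Leaving out 1 library gave 2 to 4 genes higher and 1 to 1 lower with TAC, 0 to 1 higher and 0 to 1 lower with THZ1 in TAC hearts, 2 to 4 higher and 1 to 1 lower with TAC under THZ1, and 0 to 1 higher for the interaction. In all 120 pathway genes, fits of TAC-THZ1 and TAC-Veh alone called 16 lower and 1 higher in place of 44 and 10, and array weights called 29 and 5; between TAC-THZ1 and Sham-THZ1, 18 higher became 25 with upper quartile scaling, 32 with array weights and 9 without TAC-THZ1 replicate 1, and 15 lower became 7 without that library. Upper quartile scaling also changed the split of all genes in that comparison from 1514 higher and 1706 lower to 1872 and 1371. Array weights gave 2379 higher and 2632 lower there, and the fit without TAC-THZ1 replicate 1 gave 889 and 1089. For TAC-THZ1 minus TAC-Veh, 1899 of all genes lower and 2019 higher became 816 and 583 with the groups fitted alone. With array weights they became 1102 and 1310. In sham hearts, 3 genes higher and 6 lower of all genes became 287 and 178 with the groups fitted alone, 254 and 259 with array weights and 13 and 20 with DESeq2. Scaling moved the median of all genes by at most 0.034.

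Differences near 0, none of them called, changed sign. Array weights gave 0.01 for *Trib3* in TAC-THZ1 minus TAC-Veh and 0.02 for *Hspa5* in sham hearts, where DESeq2 gave 0.0014, and upper quartile scaling gave 0.01 for *Atf5* in TAC-THZ1 minus Sham-THZ1. Leaving out 1 library gave ranges of -0.01 to 0.24 for *Atf5* with TAC, -0.12 to 0.13 for *Atf5*, -0.13 to 0.06 for *Trib3*, -0.03 to 0.06 for *Atf6* and -0.15 to 0.03 for *Ern1* with THZ1 in TAC hearts, and -0.11 to 0.02 for *Atf5* with TAC under THZ1. In sham hearts the ranges were -0.11 to 0.06 for *Hspa5*, -0.15 to 0.0015 for *Hsp90b1*, -0.12 to 0.0021 for *Creld2*, -0.0034 to 0.07 for *Atf4* and -0.24 to 0.12 for *Asns*. For the interaction they were -0.11 to 0.04 for *Hsp90b1*, -0.10 to 0.02 for *Xbp1* and -0.28 to 0.08 for *Asns*.

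Same-numbered libraries of different groups deviated together in few cases (correlations of -0.431 to 0.164, 2 of 24 over 0.1, 7 of 24 best with their own number), so the numbers were not taken as pairs. A fit with the replicate number as a block called 3 higher and 1 lower with TAC and 1 higher and 1 lower with THZ1 in TAC hearts, as without it. The 25 to 148 reads behind *Trib3*, *Asns* and *Chac1* limit what can be seen for these genes.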
